A study of Mus musculus with 6 samples.

Results

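The nuclear-encoded genes of the mitochondrial respiratory chain and ATP synthase were compared between distal and proximal limb progenitors. They were taken from the deposited gene table by symbol, as every row whose name begins as a complex I (Nduf), complex II (Sdha to Sdhd), complex III (Uqcr, Cyc1), cytochrome c (Cycs), complex IV (Cox4 to Cox8) or complex V (Atp5) gene, or with the prefix mt- of mitochondrially encoded genes. This gave 94 of 13158 genes. No row carried the prefix mt-, so the comparison of mitochondrially encoded with nuclear-encoded genes could not be made and the subunits encoded in mitochondrial DNA were not analysed here. The name Sdha is also the beginning of Sdhaf1 to Sdhaf4, which encode assembly factors of complex II. They were kept and are reported as assembly factors. The RNA came from forelimbs of C57BL/6 embryos at embryonic day 13.5, labelled wild-type and untreated. The sorted cells of all groups carried Sox9-CreERT2 with Rosa26-tdTomato, which marks cells that have had Sox9 promoter activity and their descendants, and the tendon reporter ScxGFP. There were 3 libraries from the distal and 3 from the proximal forelimb, made by bulk MARS-seq, which sequences the 3' ends of transcripts. The labels do not say when the inducible Cre was activated, nor whether libraries came from separate embryos or from pools. A p-value here therefore reflects library-to-library spread alone, part of which may be technical.

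The respiratory chain passes electrons from NADH (complex I) and succinate (complex II) through complex III, cytochrome c and complex IV to oxygen, and pumps protons across the inner mitochondrial membrane. ATP synthase (complex V) lets the protons flow back and makes ATP. Most subunits are encoded in the nucleus and imported, and a few are encoded in mitochondrial DNA. Cartilage has few vessels and is known to rely much on glycolysis, and some subunits of complexes IV and V exist as alternative isoforms, among them, in complex IV, forms typical of heart and skeletal muscle.

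Many promoters of such genes are known to be bound by NRF1, by ETS factors such as GABP and by YY1. A window from 250 bases before to 50 after the annotated start (RefSeq, GRCm38.p6) was at hand for 75 of the 94 genes. The NRF1 letters, GCGCA and GCGC parted by 1 base of any kind and searched on both strands, were present in windows of 20 of the 75 genes (26.7%), against 5.19% of all 27025 genes with a window and 12.8% of the 7324 of them that were also tested for expression here. The ETS letters CCGGAAG were present in 26.7% of the 75, against 9.93% of all genes and 21.8% of those tested. The YY1 letters AANATGGC were present in 24.0%, against 6.96% and 11.2%. At least 1 of the 3 was found for 49 of the 75 genes (65.3%), against 19.4% of all genes and 38.7% of those tested. These motifs do not contain one another, and a gene with several windows was counted once if any of them matched. By complex, a match to at least 1 motif was found for 24 of 37 genes of complex I and 7 of 7 of complex II. For complexes III, IV and V it was found for 3 of 5, 4 of 12 and 11 of 13 genes. Assembly factors were counted with their complex here, and Sdhaf1 to Sdhaf4 were among the 7 genes of complex II. Stretches from 170 bases before to 30 after the start are shown for the 3 c subunit genes of ATP synthase (Atp5g1, Atp5g2 and Atp5g3). They are also shown for Cox5b, whose difference between regions had the smallest p-value in the set. Cox6a1 and Sdhd are shown as examples of genes with both NRF1 and ETS letters, which Atp5h, Atp5k and Sdhaf3 also hold. Capitals mark the motif letters.
Atp5g1 (chr11:96075602-96075801, minus strand): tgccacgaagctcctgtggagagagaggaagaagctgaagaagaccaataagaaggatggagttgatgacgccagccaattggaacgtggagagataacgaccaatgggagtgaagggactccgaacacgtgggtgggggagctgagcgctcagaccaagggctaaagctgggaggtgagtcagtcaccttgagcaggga
Atp5g2 (chr15:102671018-102671217, minus strand): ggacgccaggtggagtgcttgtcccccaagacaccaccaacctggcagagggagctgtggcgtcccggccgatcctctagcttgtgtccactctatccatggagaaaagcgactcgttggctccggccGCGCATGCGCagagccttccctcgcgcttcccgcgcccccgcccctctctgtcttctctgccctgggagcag
Atp5g3 (chr2:73911297-73911496, minus strand): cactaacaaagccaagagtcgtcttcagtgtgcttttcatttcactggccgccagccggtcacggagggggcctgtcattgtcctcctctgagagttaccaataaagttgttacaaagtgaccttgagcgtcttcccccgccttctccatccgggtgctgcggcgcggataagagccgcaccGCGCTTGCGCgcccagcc
Cox5b (chr1:36691317-36691516, plus strand): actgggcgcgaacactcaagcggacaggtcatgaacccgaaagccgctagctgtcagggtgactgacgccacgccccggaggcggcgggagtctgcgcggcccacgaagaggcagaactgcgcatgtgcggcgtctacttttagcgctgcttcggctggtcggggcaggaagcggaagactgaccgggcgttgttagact
Cox6a1 (chr5:115348929-115349128, minus strand): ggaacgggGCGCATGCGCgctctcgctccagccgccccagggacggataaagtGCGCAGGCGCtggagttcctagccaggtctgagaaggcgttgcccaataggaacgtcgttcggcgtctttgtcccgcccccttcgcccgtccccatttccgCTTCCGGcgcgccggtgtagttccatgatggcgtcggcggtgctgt
Sdhd (chr9:50603820-50604019, minus strand): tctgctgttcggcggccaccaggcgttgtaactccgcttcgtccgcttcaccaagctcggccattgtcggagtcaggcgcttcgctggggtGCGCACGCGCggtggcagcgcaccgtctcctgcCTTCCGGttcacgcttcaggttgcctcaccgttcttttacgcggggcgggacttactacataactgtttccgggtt
Atp5g2 and Atp5g3 hold 1 NRF1 match each, Cox6a1 holds 2 NRF1 matches and 1 ETS match, and Sdhd holds 1 of each. No exact match lay in the stretches of Atp5g1 and Cox5b. A match is a string of letters and not a measured binding site. The median log2 fold change, distal over proximal, was 0.01 for the 20 tested genes with the NRF1 letters and -0.04 for the 54 without. It was -0.07 with and -0.01 without the ETS letters, and 0.00 with and -0.04 without the YY1 letters. These medians are a description.

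The libraries held 1585631 to 2143795 counts in distal and 1709551 to 2623788 counts in proximal samples. Sox9 and Scx, the genes behind the sort, were detected in every library, and both were higher in distal ones. Rn45s, the 45S ribosomal RNA precursor, took 4.63%, 6.81% and 2.98% of the counts in distal libraries 1 to 3 and 11.7%, 2.94% and 2.20% in proximal libraries 1 to 3. Of the skeletal muscle markers, 9 of 12 were listed, and their summed level was 36.2 to 52.5 CPM in distal and 208 to 597 CPM in proximal libraries, with 5 of 5 tested markers called higher in proximal libraries by edgeR. Listed markers of red blood cells (3 of 8) summed to 1.26 to 11.9 CPM in distal and 1.10 to 80.2 CPM in proximal libraries. The listed ectoderm markers summed to 51.3 to 79.2 CPM in distal and 63.6 to 80.9 CPM in proximal libraries. The listed macrophage markers (4 of 6) summed to 1.98, 0 and 1.67 CPM in distal libraries 1 to 3, against 10.0, 9.38 and 4.32 CPM in proximal libraries 1 to 3, without overlap, and Csf1r was at 0 in every distal library. Those of endothelium and of nerve overlapped between regions, at 3.46 to 10.6 and 8.41 to 9.48 CPM distally, against 4.68 to 10.5 and 7.55 to 22.6 CPM proximally. Levels are given as CPM, the counts of a gene relative to its library's total, with totals adjusted for composition by the TMM method.

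Transcripts of the respiratory chain and ATP synthase were at close levels in distal and proximal progenitors. All 94 genes together took 2.97%, 2.88% and 2.84% of all counts in distal libraries 1 to 3, against 2.91%, 3.08% and 2.87% in proximal libraries 1 to 3. Of the counts without Rn45s, they took 3.11%, 3.09% and 2.93% in distal and 3.30%, 3.17% and 2.93% in proximal libraries. The regions overlapped. Of the 94 genes, 90 passed the filter on low counts and were tested. None was called higher in distal and none higher in proximal libraries by edgeR's quasi-likelihood test at a Benjamini-Hochberg adjusted p of 0.05, whereas 1.11% and 2.27% of all 9512 genes tested were called in these directions. DESeq2 and limma-voom called none either. At an unadjusted p of 0.05, edgeR gave 0 genes higher in distal (background 4.81%) and 3 higher in proximal libraries (background 6.02%), DESeq2 gave 0 and 1, and limma-voom gave 0 and 3. The median log2 fold change, distal over proximal, of the 90 genes was -0.03 (quartiles -0.13 and 0.06), beside 0.01 (quartiles -0.19 and 0.20) for all genes tested. The 95% interval of the fold change lay within 1 of 0 on the log2 scale for 84 of the 90 genes, against 68.0% of all genes tested, and within 0.5 of 0 for 53 of the 90, against 13.0%. The 6 genes with wider intervals were Uqcrb, Uqcrc2, Cox7a2, Atp5s, Sdhaf3 and Ndufaf6. The median SE was 0.16 for the 90 genes, against 0.26 for all genes tested. Narrower intervals stay within such limits more often, so these counts alone do not show a smaller difference between regions. In bulk RNA such as this, fewer cells of a type and less RNA per cell cannot be told apart.

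**Figure D1:**
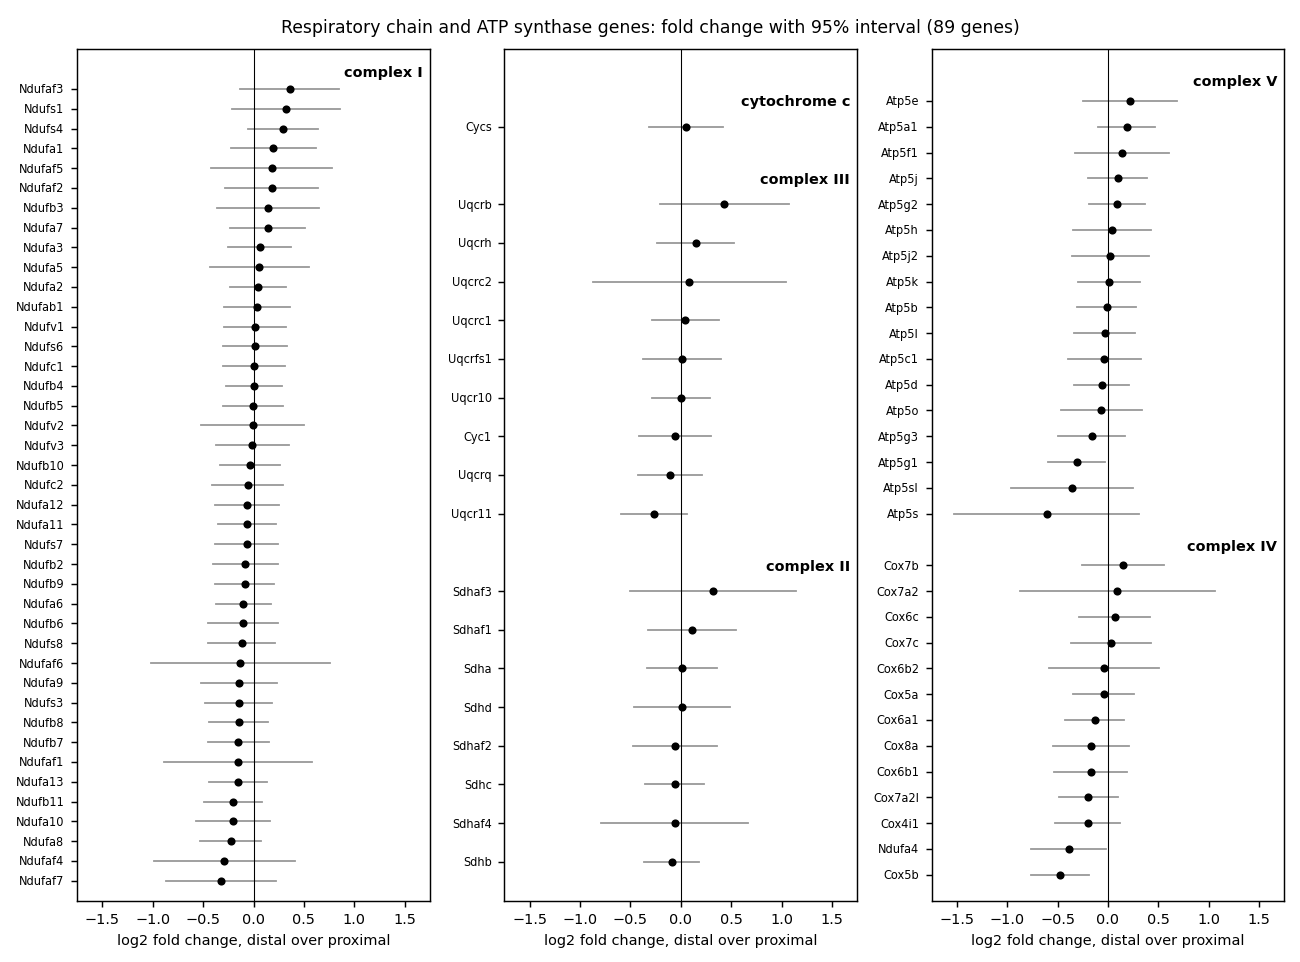
Log2 fold change, distal over proximal, of 89 of the 90 tested genes (points) with its 95% interval from edgeR's quasi-likelihood fit (lines), grouped by complex and ordered by size within each. Cox5b, Ndufa4 and Atp5g1 are the 3 genes whose interval lies wholly below 0, and 83 of the 89 intervals shown stay within 1 of 0.

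Complex I takes electrons from NADH. All 42 of its listed genes were tested and none passed. The 7 core subunits had a median log2 fold change of -0.01, the 28 accessory subunits -0.04 and the 7 Ndufaf assembly factors -0.13. Summed over its genes, complex I stood at 9342 ± 623 CPM distally, against 9627 ± 795 CPM proximally (SD, n = 3 each). The gene with the smallest p was Ndufs4, an accessory subunit whose loss in mice models Leigh syndrome, a neurodegenerative disease. Ndufs4 had 140, 128 and 131 CPM in distal libraries 1 to 3, against 126, 102 and 98.9 CPM in proximal libraries 1 to 3. The distal values were all above the proximal ones, distal library 2 only just above proximal library 1, and the difference did not pass the test (log2 fold change 0.29, SE 0.16, 95% interval -0.05 to 0.64, edgeR adjusted p = 0.59). In the other direction, the accessory subunits Ndufb11, encoded on the X chromosome, and Ndufa6 had libraries that did not overlap between regions. Ndufb11 had 373, 314 and 333 CPM in the distal libraries, against 416, 374 and 386 CPM in the proximal ones (log2 fold change -0.20, SE 0.13, edgeR adjusted p = 0.70). Ndufa8, another accessory subunit, and Ndufaf3, an assembly factor, had log2 fold changes of -0.23 (SE 0.14, edgeR adjusted p = 0.68) and 0.36 (SE 0.22, edgeR adjusted p = 0.69). Over the whole set, 2 of 90 genes did not overlap with distal libraries higher (background 7.53%) and 4 of 90 with proximal libraries higher (background 8.67%). The most counted genes of complex I were Ndufa13 (597 ± 34.4 CPM in the distal libraries, against 664 ± 53.0 CPM in the proximal ones, SD, n = 3 each), Ndufa2 (507 ± 33.7 and 493 ± 32.7 CPM in distal and proximal libraries) and Ndufb9 (435 ± 41.2 and 463 ± 30.6 CPM in distal and proximal libraries). CPM of 3' ends are not divided by transcript length and are compared here between libraries, not between genes.

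Complex II, succinate dehydrogenase, links the citrate cycle to the chain and has no subunit encoded in mitochondrial DNA. Its 4 subunit genes had log2 fold changes between -0.09 (Sdhb, the iron-sulfur subunit) and 0.01 (Sdha, the flavoprotein). Sdhb averaged 359 ± 21.0 CPM in the distal libraries, against 382 ± 19.4 CPM in the proximal ones (SD, n = 3 each), with a 95% interval of the log2 fold change of -0.36 to 0.18. The membrane anchors Sdhc and Sdhd had log2 fold changes of -0.06 and 0.01. The assembly factors Sdhaf1 and Sdhaf3 had 0.11 (SE 0.20) and 0.32 (SE 0.37). Sdhaf3 was counted little, at 13.0 ± 4.32 CPM in the distal libraries, against 10.6 ± 4.22 CPM in the proximal ones (SD, n = 3 each).

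Complex III carries electrons from ubiquinol to cytochrome c. None of its 9 genes passed and their median log2 fold change was 0.01. Cycs, which encodes cytochrome c itself, averaged 245 ± 27.6 CPM in the distal libraries, against 237 ± 42.6 CPM in the proximal ones (SD, n = 3 each), with a log2 fold change of 0.05 (95% interval -0.31 to 0.42). Uqcr11, a small accessory subunit, had -0.27 (SE 0.15, edgeR adjusted p = 0.63). Uqcrh, the hinge protein, had 0.15 (SE 0.17), Uqcrq had -0.11 (SE 0.14) and Uqcr10 had -0.00 (SE 0.13). Uqcrc2, named after its values were seen, and Cox7a2 stood out for their spread among libraries of the same region rather than for a difference between regions. Uqcrc2, a core protein of complex III (chromosome 7, 120635189 to 120659523), had 147, 164 and 66.3 CPM in distal libraries 1 to 3, against 196, 94.9 and 69.4 CPM in proximal libraries 1 to 3. Cox7a2, the widely expressed isoform of a complex IV subunit, had 183, 191 and 82.5 CPM in distal libraries, against 223, 141 and 67.6 CPM in proximal libraries. In both genes proximal library 1 and distal libraries 1 and 2 were high and distal library 3 and proximal library 3 were low, so that the highest and lowest libraries of a single region differed 2.48-fold (distal) and 2.82-fold (proximal) for Uqcrc2 and 2.31-fold (distal) and 3.29-fold (proximal) for Cox7a2. The median gene of the set differed 1.23-fold within distal and 1.28-fold within proximal libraries. The 3 libraries that were high for these genes were those with the largest share of Rn45s; the part of RNA quality in this was not tested. In a fit without distal library 3 and proximal library 1, Uqcrc2 passed the test as higher in distal libraries (log2 fold change 0.93, edgeR adjusted p = 0.0090). These are its lowest distal and its highest proximal library, so leaving them out raises the fold change by construction. With all libraries it had 0.08 (SE 0.42, edgeR adjusted p = 0.99). Uqcrb, a ubiquinone-binding subunit, had the largest log2 fold change in the distal direction among the 90 genes that passed the filter, 0.43 (SE 0.29, 95% interval -0.21 to 1.07, edgeR adjusted p = 0.74). It had 72.7, 80.3 and 51.3 CPM in the distal libraries, against 62.9, 60.2 and 30.2 CPM in the proximal ones, and the regions overlapped.

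**Figure D2:**
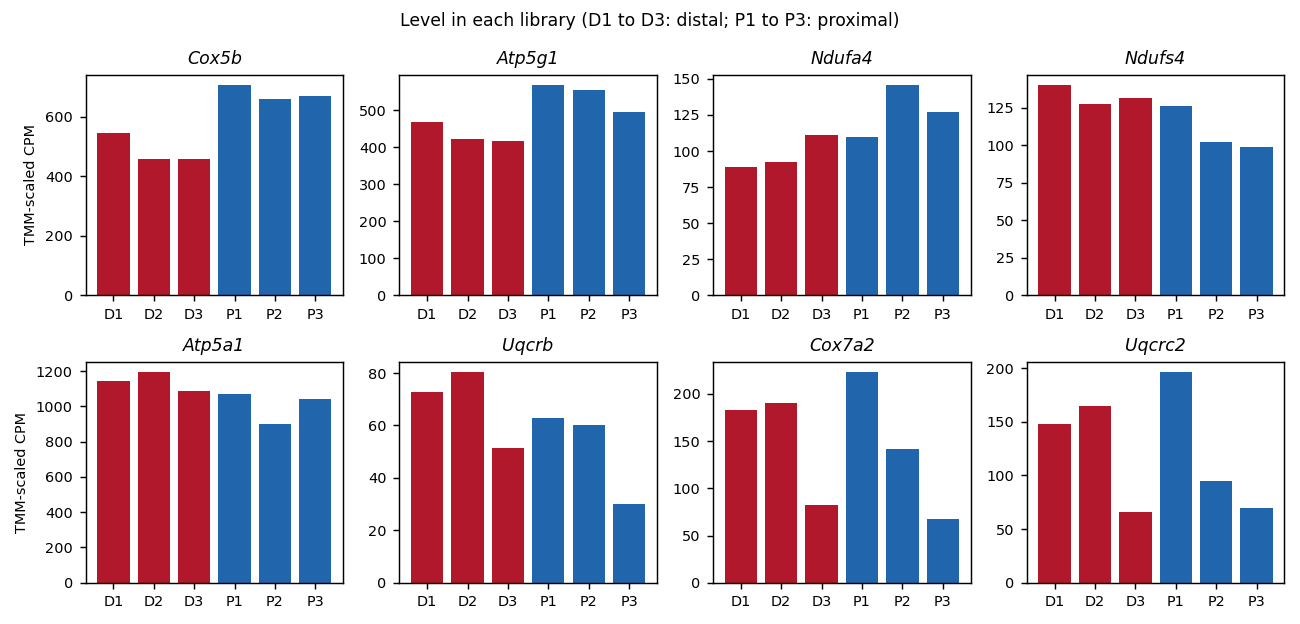
Level of 8 genes in each library, in TMM-scaled CPM on linear axes that start at 0, with distal libraries D1 to D3 left of proximal libraries P1 to P3. Cox5b and Atp5g1 are lower in every distal library, Ndufs4 and Atp5a1 are higher in every distal library, and Cox7a2 and Uqcrc2 are spread widely within each region.

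Complex IV, cytochrome c oxidase, hands the electrons to oxygen. It held 2 of the 3 genes of the set with an unadjusted p under 0.05, Cox5b and Ndufa4, the third being Atp5g1 of complex V. Cox5b (chromosome 1, 36691487 to 36693388), a zinc-binding subunit on the matrix side of the enzyme, had 547, 459 and 459 CPM in distal libraries 1 to 3, against 707, 660 and 669 CPM in proximal libraries 1 to 3. Every distal library was below every proximal one. The log2 fold change was -0.47 (SE 0.13, 95% interval -0.76 to -0.18), and the adjusted p in edgeR's test was 0.097, above the threshold. With a term for the Rn45s share of each library, chosen after the data were seen, Cox5b passed as lower in distal libraries (edgeR adjusted p = 0.035), and with single libraries left out its adjusted p was 0.10 to 0.28. Ndufa4, once counted to complex I and now known as a complex IV subunit, had 89.1, 92.3 and 111 CPM in the distal libraries, against 110, 146 and 127 CPM in the proximal ones (log2 fold change -0.39, SE 0.17, edgeR adjusted p = 0.43). Distal library 3 lay just above proximal library 1. With those 2 libraries left out together, Ndufa4 passed as lower in distal libraries (log2 fold change -0.59, edgeR adjusted p = 0.048); they are its highest distal and its lowest proximal library, so their removal favours that call by construction. Cox4i1, the main isoform of the largest nuclear-encoded subunit, had 1290, 1090 and 1096 CPM in the distal libraries, against 1489, 1364 and 1148 CPM in the proximal ones (log2 fold change -0.20, SE 0.14). Cox6a1, Cox6b1, Cox8a and Cox7a2l, a factor of supercomplex assembly, had log2 fold changes of -0.13, -0.17, -0.17 and -0.19. Cox6b2, of the same isoform group as Cox6b1, had -0.04 (SE 0.24, edgeR adjusted p = 0.99). Of the 13 tested genes of complex IV, 9 had negative and 4 positive values, with a median of -0.13. Negative values were found for 51 of the 90 tested genes of the set and 4642 of all 9512 genes tested. Without Cox7a2l, the 12 tested subunit genes had 8 negative and 4 positive values, with a median of -0.09. None of the 13 passed.

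The counts of complex IV as a share of the counts of all 94 genes, which does not depend on how libraries are scaled, were 18.8%, 18.2% and 17.95% in distal libraries 1 to 3, against 20.1%, 19.5% and 19.6% in proximal libraries 1 to 3. The regions did not overlap. Without Cox5b the shares were 17.4%, 16.8% and 16.5% in distal and 18.4%, 17.7% and 17.6% in proximal libraries, which also did not overlap. The share of complex V ran the other way, at 36.6%, 37.5% and 36.8% in distal and 36.0%, 35.3% and 36.0% in proximal libraries. Within complex V, the F1 head took 13.9%, 14.1% and 14.2% in distal and 12.6%, 13.5% and 13.2% in proximal libraries, again without overlap, whereas the Fo and stalk subunits took 22.6%, 23.3% and 22.5% in distal and 23.2%, 21.7% and 22.6% in proximal libraries, which overlapped. The shares of complexes I, II and III overlapped between regions, and averaged 32.1% ± 0.987, 3.69% ± 0.201 and 8.13% ± 0.296 in distal and 32.2% ± 0.935, 3.69% ± 0.0862 and 7.87% ± 0.439 in proximal libraries (SD, n = 3 each). Shares of a whole add up to 100%, so these are not 5 separate results, and they are given without a test. The summed levels, in contrast, overlapped between regions. Complex IV summed to 5914, 5237 and 4866 CPM in distal and 6689, 5778 and 5313 CPM in proximal libraries. Complex V summed to 11512, 10792 and 9973 CPM in distal and 11992, 10450 and 9740 CPM in proximal libraries. Its F1 head summed to 4377, 4065 and 3835 CPM in distal and 4210, 4003 and 3579 CPM in proximal libraries. Skeletal muscle and macrophage markers were higher in every proximal library (above); their part in the shares of complexes IV and V was not tested.

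**Figure D3:**
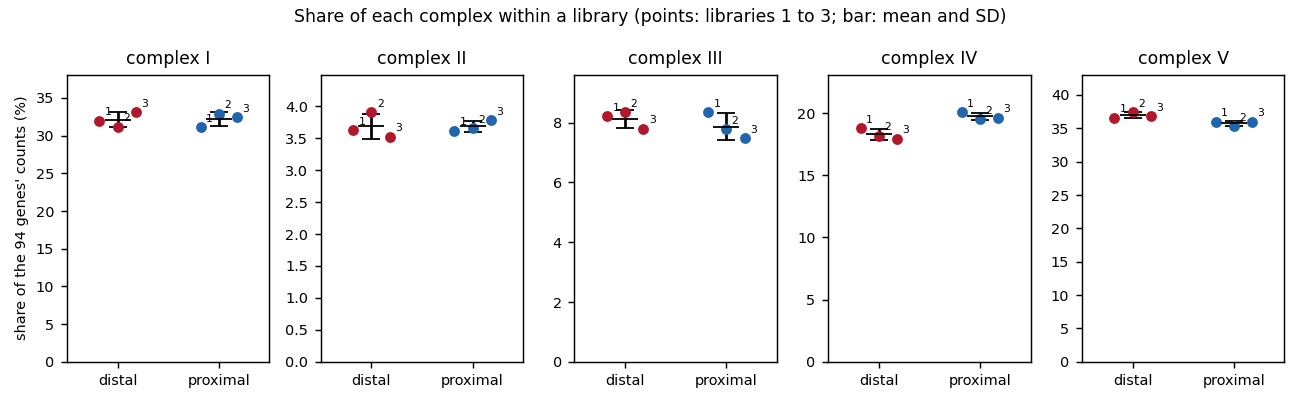
Share of the counts of all 94 genes taken by each complex, in percent, in distal (red) and proximal (blue) libraries, with library numbers, the mean and the SD. The axes start at 0 and differ between panels. The distal points lie below the proximal ones for complex IV (17.95% to 18.8% against 19.5% to 20.1%) and above them for complex V.

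Complex V makes ATP. Its 17 genes had a median log2 fold change of -0.01 and none passed. The F1 head was represented by 5 genes, with Atp5b, the catalytic beta subunit, at 1085 ± 38.2 CPM in the distal libraries, against 1096 ± 116 CPM in the proximal ones (SD, n = 3 each; log2 fold change -0.01, 95% interval -0.30 to 0.28). Atp5a1, the alpha subunit, had 1142, 1193 and 1085 CPM in the distal libraries, against 1068, 897 and 1043 CPM in the proximal ones. The distal libraries were all above the proximal ones, and the difference did not pass (log2 fold change 0.18, SE 0.13, edgeR adjusted p = 0.76). Subunit c, which forms the rotating ring in the membrane, is encoded by 3 genes that differ in their targeting sequence and give the same mature protein. Atp5g1 (chromosome 11, 96072793 to 96075694) had 469, 422 and 416 CPM in the distal libraries, against 569, 556 and 495 CPM in the proximal ones, with every distal library below every proximal one (log2 fold change -0.31, SE 0.13, 95% interval -0.59 to -0.03, edgeR adjusted p = 0.39). Atp5g2 averaged 880 ± 52.1 CPM in the distal libraries, against 828 ± 41.8 CPM in the proximal ones, and Atp5g3 averaged 1208 ± 88.8 CPM in the distal libraries, against 1353 ± 226 CPM in the proximal ones (SD, n = 3 each), with log2 fold changes of 0.09 and -0.16. Of the counts of these 3 genes, Atp5g1 made up 17.6%, 16.8% and 17.3% in distal libraries, against 18.7%, 22.1% and 19.0% in proximal libraries. Atp5g2 made up 35.0%, 32.9% and 36.8% in distal libraries, against 28.8%, 32.3% and 30.6% in proximal libraries. The regions did not overlap in either share. Atp5s and Atp5sl, which carry Atp5 names but are not subunits of the enzyme, had the lowest counts of the group and log2 fold changes of -0.61 (SE 0.42) and -0.35 (SE 0.27).

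The 4 genes that were too low to be tested are all isoforms or relatives of complex IV subunits. Cox6a2 and Cox7a1 are the forms of heart and skeletal muscle. Cox6a2 had 2, 0 and 0 counts in distal libraries 1 to 3, against 2, 4 and 1 in proximal libraries 1 to 3, and Cox7a1 had 4, 2 and 5 counts in distal and 4, 7 and 4 in proximal libraries. The listed muscle markers had 577 to 1081 counts in proximal libraries, against 65 to 91 in the distal ones. Whether Cox6a2 or Cox7a1, at counts this low, vary with muscle cells was not tested. Ndufa4l2, a relative of Ndufa4 known as a target of the hypoxia factor HIF1, had 67, 1 and 24 counts in distal libraries, against 3, 0 and 3 in proximal libraries. Cox4i2, the isoform of Cox4 tuned to low oxygen, had 26, 4 and 20 counts in distal libraries, against 4, 3 and 9 in proximal libraries. In both genes distal libraries 1 and 3 were above every proximal library, whereas distal library 2 held 1 and 4 counts. With no filter on counts they did not pass (edgeR adjusted p = 0.24 for Ndufa4l2 and 0.15 for Cox4i2). Without distal library 2 both entered the test through the distal libraries and passed (edgeR adjusted p = 0.011 and 0.041), and without proximal library 1, 2 or 3 they did not (edgeR adjusted p = 0.28, 0.39 and 0.30 for Ndufa4l2 and 0.23, 0.53 and 0.35 for Cox4i2). Without distal library 1 or 3 they did not pass the filter. Distal library 2 is the lowest distal library of both genes, so leaving it out raises the fold change by construction. In the fits without a single library that tested them, both entered through distal libraries alone, where they are high. These calls are therefore given as values. Higd1a, a small inner-membrane protein, had 606, 207 and 248 counts in distal and 229, 172 and 238 in proximal libraries, and Bnip3, a mitophagy receptor named after its values were seen, had 314, 108 and 94 counts in distal and 74, 47 and 69 in proximal libraries. Vegfa, also named after its values were seen, had 266, 96 and 132 counts in distal and 111, 129 and 157 in proximal libraries, which overlapped. Raw counts depend on library size. In CPM, Bnip3 had 155, 68.3 and 52.4 in distal libraries, against 49.5, 25.9 and 24.8 in proximal ones. These did not overlap (background 7.53% of all genes tested), whereas the CPM of Higd1a and of Vegfa overlapped. The log2 fold changes of Higd1a, Bnip3 and Vegfa were 0.78 (SE 0.34), 1.49 (SE 0.42) and 0.41 (SE 0.27). None of them passed the test (edgeR adjusted p = 0.44, 0.12 and 0.74). The oxygen state of the cells was not measured.

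**Figure D4:**
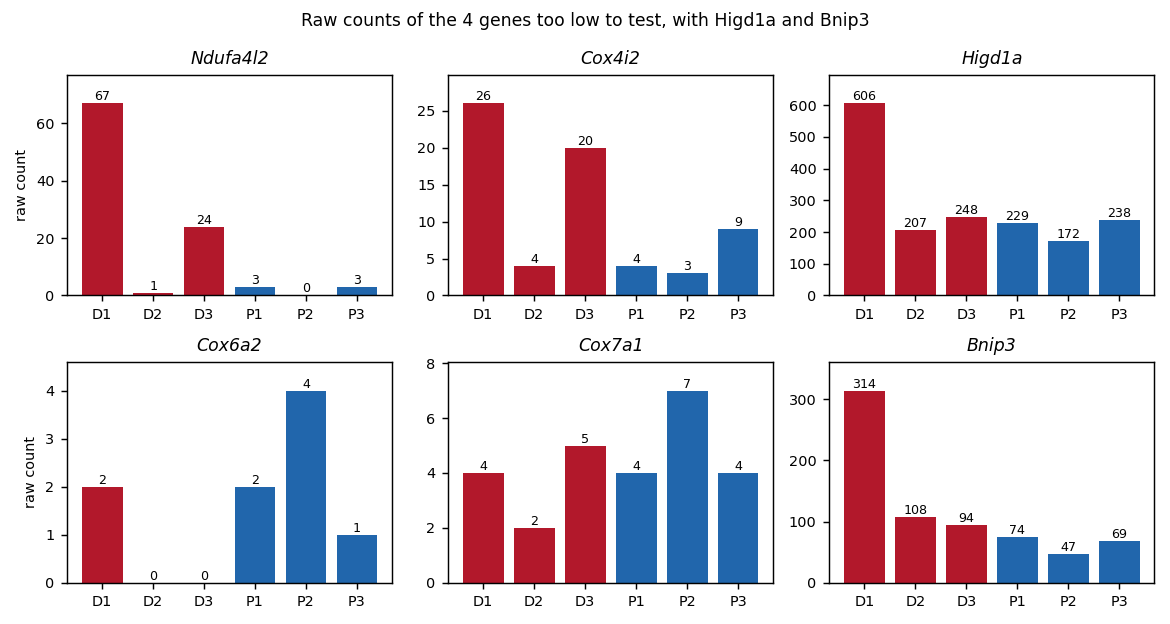
Raw counts in each library of the 4 genes that did not pass the filter, with Higd1a and Bnip3, on linear axes that start at 0, distal libraries D1 to D3 left of proximal libraries P1 to P3. Ndufa4l2 and Cox4i2 are high in distal libraries 1 and 3, while Cox6a2 and Cox7a1 stay at 7 counts or fewer in every library.

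Libraries of the same region were ordered alike by many genes of the set. In TMM-scaled CPM, the genes were highest of the 3 distal libraries in library 1 for 57 of 90, and lowest in library 3 for 50 of 90, against 32.2% and 38.8% of all genes tested. Among proximal libraries, library 1 was highest for 66 of 90 and library 3 lowest for 62 of 90, against 40.4% and 29.7% of all genes tested. The median deviation from a gene's mean over the 6 libraries was 0.10, -0.02 and -0.13 (log2) in distal libraries 1 to 3 and 0.17, 0.03 and -0.10 in proximal libraries 1 to 3. The order of libraries differed between TMM and library size alone in both regions, for all genes as well as for these. By library size alone, distal library 1 was highest for 37 of 90, against 22.4% of all genes tested, and distal libraries 2 and 3 were lowest for 39 and 35 of 90, against 2854 and 2883 of all 9512 genes tested. Proximal library 1 was then highest for 26 and lowest for 38 of 90 (28.9% and 42.2%), against 21.7% and 58.1% of all genes tested, and proximal library 3 was lowest for 39 of 90, against 18.7%. By library size without Rn45s, the set's libraries most often highest and lowest were the same as with TMM. Distal library 1 was highest for 37 and distal library 3 lowest for 41 of 90, against 21.9% and 33.1% of all genes. Proximal library 1 was then highest for 45 and proximal library 3 lowest for 54 of 90, against 31.1% and 24.1% of all genes. Summed over the 94 genes, the level was 31467, 28816 and 27101 CPM in distal libraries 1 to 3 and 33298, 29600 and 27075 CPM in proximal libraries 1 to 3, a spread within each region larger than the difference between their means (29128 and 29991 CPM in distal and proximal libraries).

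**Figure D5:**
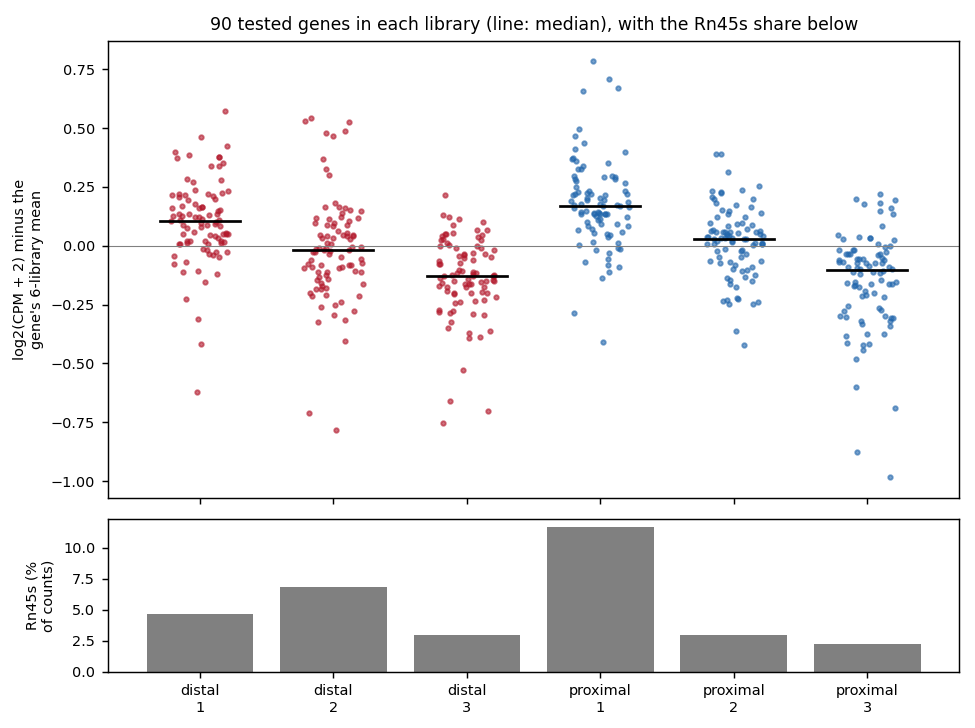
Upper panel: deviation of each of the 90 tested genes from its own mean over the 6 libraries, in log2(CPM + 2), with the median as a line; lower panel: Rn45s as a percent of all counts. Distal (red) libraries are left of proximal (blue) ones. Medians run from 0.17 in proximal library 1 to -0.13 in distal library 3.

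No gene of 4 other lists of mitochondrial energy metabolism passed the test. The first held 36 tested genes outside the set, mostly assembly and biogenesis factors of the complexes. Among them were also Usmg5, a subunit of ATP synthase, and Atpif1, an inhibitor of that enzyme. The second held 32 genes of mitochondrial DNA expression, the third 16 citrate cycle genes and the last 26 genes of mitochondrial import, carriers and channels. None was called by edgeR in either direction. At an unadjusted p of 0.05, 1 gene was higher distally in each of the first and second groups, and 1 was higher proximally in the third, beside the 4.81% (distal) and 6.02% (proximal) of all genes tested given above. Counts this small in lists of 16 to 36 genes are near that background. Their median log2 fold changes were 0.01, 0.01, 0.00 and -0.05, beside 0.01 for all genes tested. The smallest p-values were those of Gabpb1, a subunit of the ETS factor GABP, and of Dlat, the E2 subunit of pyruvate dehydrogenase. Gabpb1 had 34.1, 30.3 and 23.4 CPM in the distal libraries, against 18.1, 11.6 and 13.7 CPM in the proximal ones, with every distal library above every proximal one (log2 fold change 1.03, SE 0.27, edgeR adjusted p = 0.075). Dlat had 27.7, 25.9 and 23.4 CPM in the distal libraries, against 46.8, 35.3 and 46.8 CPM in the proximal ones, with every distal library below every proximal one (log2 fold change -0.74, SE 0.21, edgeR adjusted p = 0.11).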

How the data were processed

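Bulk MARS-seq (3' end RNA-seq) libraries of sorted cells were analysed from 1 deposited table. It holds raw counts per gene, as deposited by the authors, for genes whose counts sum to at least 6. It also holds normalized counts, a signal made by the authors by scaling every library with its own single factor, and these were not used here. Per the submitters' processing notes, which give no roles, the tools were HTSeq, TopHat2, DESeq2, cutadapt 1.8.3 and bcl2fastq 2.17.1.14, with build mm10. The annotation is not given in the sources used here, nor are the strand setting and the treatment of molecular identifiers and of reads shared with pseudogenes or overlapping genes. Several of these genes are known to have near-identical processed pseudogenes, so their counts may be incomplete.

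All genes were fitted with edgeR 4.0.16 in R 4.3.3 (TMM, filterByExpr with a minimum count of 10 and total of 15, robust quasi-likelihood F test, region as the only term), with Benjamini-Hochberg adjustment over 9512 genes. Fold changes are distal over proximal. Standard errors were taken as |log2 fold change| divided by the root of F, and 95% intervals use the fit's degrees of freedom. The procedure was tested on simulated data. Alternatives used DESeq2 1.42.0 and limma 3.58.1, other scalings and filters, and fits without single libraries. Gene positions and promoter windows are from RefSeq (GRCm38.p6, the build mm10); 94 of 94 genes had a position. No column belonged to another series. The values of 1 tested gene are not reported here by name; it is included in counts, sums and medians.

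The set, the gene lists and the alternatives were chosen with earlier results of these data known. The genes named are, for each complex, the 4 with the smallest p and the 3 with the highest mean, the isoform groups of complexes IV and V, and those not tested. Uqcrc2, Ndufa6, Ndufv2, Sdha, Bnip3 and Vegfa, and the genes that only a promoter, count or interval statement names, were chosen after their values were seen.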

Additional observations from a re-analysis of the deposited data

How the results depend on the processing

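Calls in the set stayed at 0 in each direction with DESeq2's size factors, library size alone, upper-quartile scaling, Rn45s left out, no filter, a filter of 10 CPM in 3 libraries, the DESeq2 Wald test, limma-voom, an adjusted p of 0.01, and Sdhaf1 to Sdhaf4 left out (chosen after the data were seen). Over all genes, 322 were called (106 higher in distal, 216 in proximal libraries), 143 at an adjusted p of 0.01, 862 without proximal library 1 and distal library 3 together, 516 with the Rn45s term and 171 to 334 with single libraries left out. Without proximal 1 and distal 3 together, 1 gene of the set was called higher in distal (Uqcrc2) and 1 in proximal libraries (Ndufa4), the summed level moved to 0.0909 on the log2 scale, distal over proximal, against -0.04 with all libraries, and Ndufv2 turned to 0.38 (unadjusted p = 0.036, edgeR adjusted p = 0.17) against -0.01. For the summed level, Uqcrc2 and Ndufv2 these are the lowest distal and highest proximal libraries, and for Ndufa4 the highest distal and lowest proximal ones, so these shifts follow in direction from which libraries are removed. The pair was chosen from earlier results of these data. With single libraries left out, 0 to 2 genes were called higher in distal libraries and 0 in proximal ones. The calls were Ndufa4l2 and Cox4i2 without distal library 2, their lowest distal library. The median log2 fold change of the set then ran from -0.10 to 0.04. The Rn45s term gave 1 call higher in proximal libraries, Cox5b at -0.48. In 628 refits of 37 named genes, 41 values changed sign, over 14 genes, and 1 of these, that of Ndufv2, had an unadjusted p under 0.05.

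The sample titles carry the same 3 non-consecutive numbers in both regions, with no statement of what they stand for, so a shared origin is possible. These numbers were fitted as a replicate block, which called 465 genes in all and 1 of the set, Cox5b higher in proximal libraries (log2 fold change -0.48, edgeR adjusted p = 0.019). Deviations of same-numbered libraries correlated at 0.365, -0.149 and 0.493 across genes, and distal libraries 1 and 2 both correlated with proximal library 1 (0.365 and 0.372). Of the same-numbered pairs, 1 was negative, and that of libraries 3 had the highest value of all pairs compared (0.493). With only 3 libraries in each region, these correlations cannot decide whether the numbers pair the samples. The set's median deviation fell from library 1 to library 3 in both regions (0.10, -0.02 and -0.13 distally, 0.17, 0.03 and -0.10 proximally). The main fit had no block and called no gene of the set, so the call of Cox5b changed with the block. The settings that leave out genes with the prefix mt- were not run, because no such row was listed.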
